A study of Homo sapiens with 6 samples.

Results

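The genes of the Wnt pathway were examined in WM266.4, an established human melanoma cell line, after silencing of RIPK4, a receptor-interacting serine/threonine kinase that has been described as an activator of Wnt signalling. The members were the protein-coding genes whose symbols start with WNT, FZD, DKK or SFRP followed by a digit, together with a fixed set of co-receptors, Dishevelled proteins, destruction complex components, transcription factors and regulators of receptor turnover. The rule used gene type and symbol and no measured value, though it was chosen with earlier results of these data known. It found 53 genes among the 24526 genes of the table. ROR2 and WIF1, which the rule also names, were not analysed here.

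Wnt ligands are lipid-modified by PORCN and carried to the cell surface by WLS. They bind Frizzled receptors, with LRP5 or LRP6 as co-receptors in the beta-catenin branch and ROR1, ROR2 or RYK in the other branches. Dishevelled proteins relay the signal, the complex of AXIN, APC and GSK3 stops degrading beta-catenin, and beta-catenin then acts on genes through TCF/LEF factors. In melanocytes and melanoma the pathway is known for its part in pigment cell fate, and WNT5A with ROR receptors for its part in cell movement.

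Cells were transfected with a negative control siRNA (neg.si, called control.si in the labels) or with RIPK4.si, a single commercial siRNA against RIPK4, and RNA was taken 48 h later. Each group had 3 libraries. The cells were a single line and both groups were transiently transfected, so an effect of the siRNA on other transcripts and an effect of less RIPK4 cannot be told apart. The libraries held 28464057 to 31688095 counted read pairs. Levels are given as CPM, the read pairs of a gene per 1000000 read pairs of its TMM-scaled library. In bulk RNA, fewer cells of a type and less RNA per cell cannot be told apart.

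The RIPK4 transcript was 85.8, 76.5 and 54.7 CPM in neg.si 1, 2 and 3 and 19.9, 16.7 and 21.5 CPM in RIPK4.si 1, 2 and 3, and every RIPK4.si library lay below every neg.si library. Its mean in RIPK4.si was 26.8% of that in neg.si (log2 fold change -1.90, SE 0.203, adjusted p = 0.0102 with edgeR). That call was lost without neg.si 2, or without any of the RIPK4.si libraries (adjusted p 1.21e-13 to 0.106 over the alternatives). All 8 melanocyte lineage markers examined, SOX10, MITF and TYR among them, were detected in every library. Their summed level was 3786 ± 219.7 CPM in neg.si and 2690 ± 63.6 CPM in RIPK4.si, with 5 of the 8 markers lower and 3 higher by their log2 fold changes. PMEL, a pigment granule protein, was called lower (312, 279 and 249 CPM in neg.si, 117, 104 and 119 CPM in RIPK4.si). TYR, at 1226 to 1446 CPM in neg.si and 870 to 937 CPM in RIPK4.si, was also lower without overlap. So was DCT, at 632 to 816 CPM in neg.si and 408 to 435 CPM in RIPK4.si. Of the markers on the higher side, TYRP1 was 26.4 to 30.2 CPM in neg.si and 30.02 to 42.4 CPM in RIPK4.si. MITF was 291 to 396 CPM in neg.si and 347 to 378 CPM in RIPK4.si. Of the keratinocyte markers, KRT5 and KRT14 did not exceed 0.614 CPM in any library and the list summed to 10.8 to 12.6 CPM in neg.si and 12.8 to 16.9 CPM in RIPK4.si, most of it KRT10. The fibroblast list summed to between 722.7 and 925 CPM in neg.si and between 620.0 and 1142 CPM in RIPK4.si, almost all of it COL1A2 and FAP, while COL1A1 and DCN did not exceed 0.291 CPM. The leukocyte list summed to 6.30 to 8.12 CPM in neg.si and 4.15 to 4.98 CPM in RIPK4.si, and the endothelial list to between 4.13 and 5.19 CPM. The part of the pigment, keratinocyte, fibroblast or leukocyte gene levels in the Wnt gene values was not tested.

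Of the 53 Wnt genes, 45 passed the filter on low counts. The other 8, WNT1, WNT4, WNT6, WNT9B, WNT10A, WNT11, FZD9 and SFRP5, had between 0 and 18 counts in a library. None of the 45 was called by edgeR's quasi-likelihood test at an adjusted p under 0.05, where 0.767% of the 16297 genes tested were called. At an unadjusted p under 0.05 there were 9 of 45 (20%), 4 higher and 5 lower in RIPK4.si, against 10.8% of all genes tested. The 6 libraries separated without overlap into the 2 groups for 16 of 45 (35.6%), against 17.6% of all genes. The median log2 fold change of the 45 was -0.05, beside -0.02 over all genes tested, with 17 positive and 28 negative values. DESeq2 called 2 of 40 (background 2.91%), ROR1 and DKK3, and the same genes were called by edgeR once each library's trend on GC content was removed (2 of 45, background 3.28%). The count of 9 was 12 of 45, 3 of 46 and 9 of 48 without neg.si 1, 2 or 3, where 13.5%, 6.88% and 14.3% of all genes were at that p. It was 7 of 48, 6 of 46 and 3 of 47 without RIPK4.si 1, 2 or 3, where 8.54%, 8.73% and 6.48% of all genes were.

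**Figure D1:**
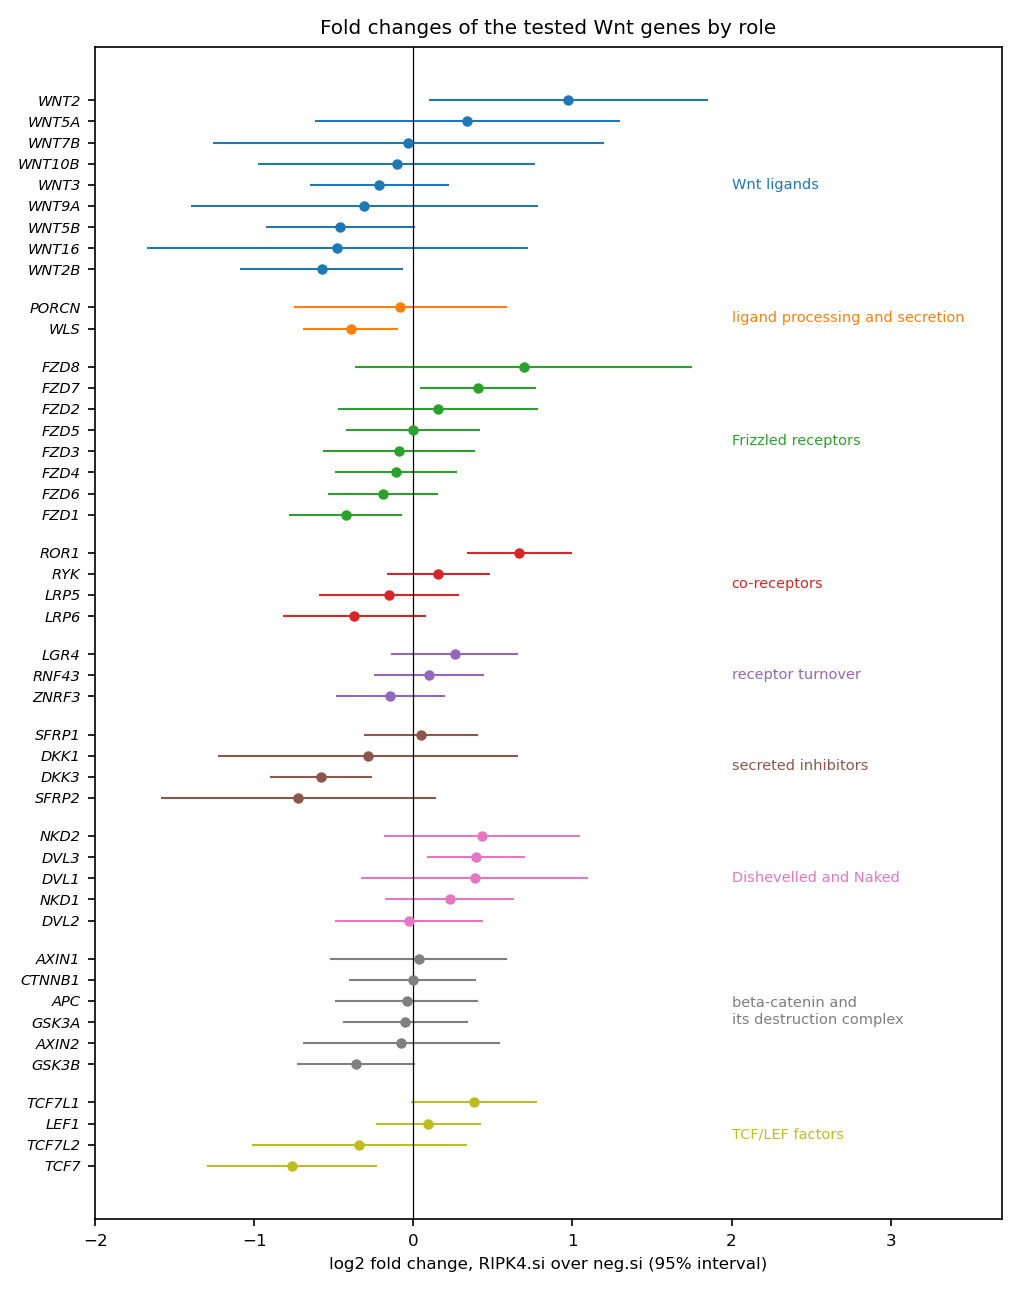
Log2 fold change of RIPK4.si over neg.si (x axis) for the 45 tested Wnt genes (y axis), grouped and coloured by role. Points are edgeR estimates from 3 libraries per group and bars are 95% intervals before adjustment for multiple testing. The intervals of 9 genes leave out 0, with WNT2, ROR1, FZD7 and DVL3 on the positive side and TCF7, DKK3, WNT2B, FZD1 and WLS on the negative side.

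Ligand transcripts were scarce in these cells. The 15 WNT genes had a summed level of 20.3 ± 1.21 CPM in the neg.si group and 16.7 ± 0.625 CPM in the RIPK4.si group (mean ± SD, n = 3 each). The 3 RIPK4.si libraries, at 16.3 to 17.4 CPM, all lay below the neg.si libraries, at 18.9 to 21.1 CPM. Of the 9 ligands tested, 2 had positive and 7 negative log2 fold changes, with a median of -0.22.

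WNT5B, a ligand of the branches that do not use beta-catenin, had the highest level per length of any ligand, 1.56 ± 0.265 CPM per kilobase of exon in neg.si and 1.13 ± 0.130 in RIPK4.si. Its library values were 7.59, 6.86 and 5.38 CPM in neg.si 1, 2 and 3 and 4.91, 5.30 and 4.21 CPM in RIPK4.si 1, 2 and 3. All RIPK4.si values were below the neg.si values by a narrow margin (log2 fold change -0.46, SE 0.208, adjusted p = 0.471). WNT2B, a ligand of the beta-catenin branch, was 2.74, 3.13 and 3.59 CPM in neg.si 1, 2 and 3 and 2.35, 1.87 and 2.12 CPM in RIPK4.si 1, 2 and 3. Its groups did not overlap either (log2 fold change -0.58, SE 0.228, adjusted p = 0.381).

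WNT2, another ligand of the beta-catenin branch, lay near the lower limit of what could be counted, with 14, 14 and 10 read pairs in neg.si and 23, 31 and 18 in RIPK4.si. This corresponds to 0.452, 0.466 and 0.315 CPM in neg.si 1, 2 and 3 and 0.784, 1.07 and 0.579 CPM in RIPK4.si 1, 2 and 3, and the RIPK4.si libraries were all higher (log2 fold change 0.97, SE 0.390, adjusted p = 0.388). WNT5A, linked to melanoma cell movement, was 0.775, 1.63 and 2.86 CPM in neg.si 1, 2 and 3 and 1.67, 2.70 and 2.31 CPM in RIPK4.si 1, 2 and 3. The neg.si libraries alone spanned a wider range than both groups' means were apart (log2 fold change 0.34, SE 0.425, adjusted p = 0.887). The log2 fold change was 0.0052 without neg.si 1, 0.90 without neg.si 3, 0.52 without RIPK4.si 1 and 0.19 without RIPK4.si 2. Among the ligands with too few counts to test, WNT11 had 12, 10 and 8 counts in neg.si and 1, 2 and 5 in RIPK4.si. For WNT1 these were 1, 3 and 3 and 0, 0 and 0, and a count of 0 allows up to 3 counts in a library.

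WLS, the carrier that Wnt proteins need to reach the surface, was far more abundant than any ligand. It measured 113, 119 and 109.5 CPM in neg.si 1, 2 and 3 and 89.5, 84.1 and 86.8 CPM in RIPK4.si 1, 2 and 3, so that every RIPK4.si library was lower (log2 fold change -0.39, SE 0.133, adjusted p = 0.283). Over the alternatives its adjusted p ran from 0.126 to 0.846. PORCN, the acyltransferase, was 9.78, 6.03 and 4.03 CPM in neg.si and 5.998, 6.75 and 5.98 CPM in RIPK4.si (log2 fold change -0.083), and the RIPK4.si values lay within the neg.si range.

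The Frizzled receptors were dominated by FZD6, FZD7 and FZD1. Per length of exon, FZD6, a receptor known for planar cell polarity, made up 55.4% ± 5.68 of all Frizzled transcripts in neg.si and 50.6% ± 0.930 in RIPK4.si. FZD7 made up 22.2% ± 3.04 and 30.5% ± 1.34, and FZD1 made up 16.5% ± 2.89 and 12.8% ± 0.697. The FZD7 share was 18.8% to 24.7% in the neg.si libraries and 29.1% to 31.8% in the RIPK4.si libraries, and the FZD1 share was 14.3% to 19.7% and 12.1% to 13.4%, so neither overlapped between groups. These shares are parts of one whole and do not vary independently.

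FZD7, a receptor used in beta-catenin signalling in many tumours, was 88.4, 84.4 and 68.9 CPM in neg.si 1, 2 and 3 and 97.6, 121 and 102 CPM in RIPK4.si 1, 2 and 3. Its RIPK4.si values were all above neg.si (log2 fold change 0.41, SE 0.161, adjusted p = 0.383). FZD1, a related receptor, was 106, 84.9 and 78.4 CPM in neg.si 1, 2 and 3 and 64.4, 68.9 and 67.4 CPM in RIPK4.si 1, 2 and 3. Here all RIPK4.si values were below neg.si, the nearest being 68.9 against 78.4 CPM (log2 fold change -0.42, SE 0.158, adjusted p = 0.342), and without neg.si 1 the log2 fold change was -0.27. FZD6 itself was 157, 181 and 197 CPM in neg.si 1, 2 and 3 and 140.2, 170.4 and 159 CPM in RIPK4.si 1, 2 and 3 and overlapped between groups (log2 fold change -0.19, SE 0.154, adjusted p = 0.785), with a log2 fold change of -0.11 without neg.si 3 and -0.10 without RIPK4.si 1. The summed level of all Frizzled genes was 385 ± 0.326 CPM in neg.si and 365 ± 29.3 CPM in RIPK4.si, and the groups overlapped.

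ROR1, a receptor tyrosine kinase that binds WNT5A, had the smallest p-value of any Wnt gene. Its level was 21.1, 23.8 and 24.6 CPM in neg.si 1, 2 and 3 and 36.1, 36.5 and 37.7 CPM in RIPK4.si 1, 2 and 3, and the gap between groups was far wider than the spread within either. Mean levels were 23.2 ± 1.83 CPM in neg.si and 36.8 ± 0.823 CPM in RIPK4.si (log2 fold change 0.67, SE 0.147, adjusted p = 0.0900). DESeq2 called it (adjusted p = 0.00679), as did edgeR with GC trends removed (adjusted p = 0.0148) and edgeR without neg.si 3 (adjusted p = 0.0454). Over all alternatives the adjusted p ran from 0.00679 to 0.482. The gene lies on chromosome 1, 63774017 to 64181498, plus strand (GRCh38), and its exons overlap no antisense exon.

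The remaining co-receptors were closer to 0. RYK, which had the highest level per length of the 4, 9.62 CPM per kilobase over all libraries, was 70.9, 77.5 and 74.4 CPM in neg.si 1, 2 and 3 and 72.8, 87.8 and 87.9 CPM in RIPK4.si 1, 2 and 3 (log2 fold change 0.16, SE 0.145, adjusted p = 0.820), and the log2 fold change was 0.25 without RIPK4.si 1. LRP5 and LRP6, the co-receptors of the beta-catenin branch, had log2 fold changes of -0.15 and -0.37, and both overlapped between groups. The 4 genes together summed to 224.0 ± 9.70 CPM and 223 ± 10.5 CPM.

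**Figure D2:**
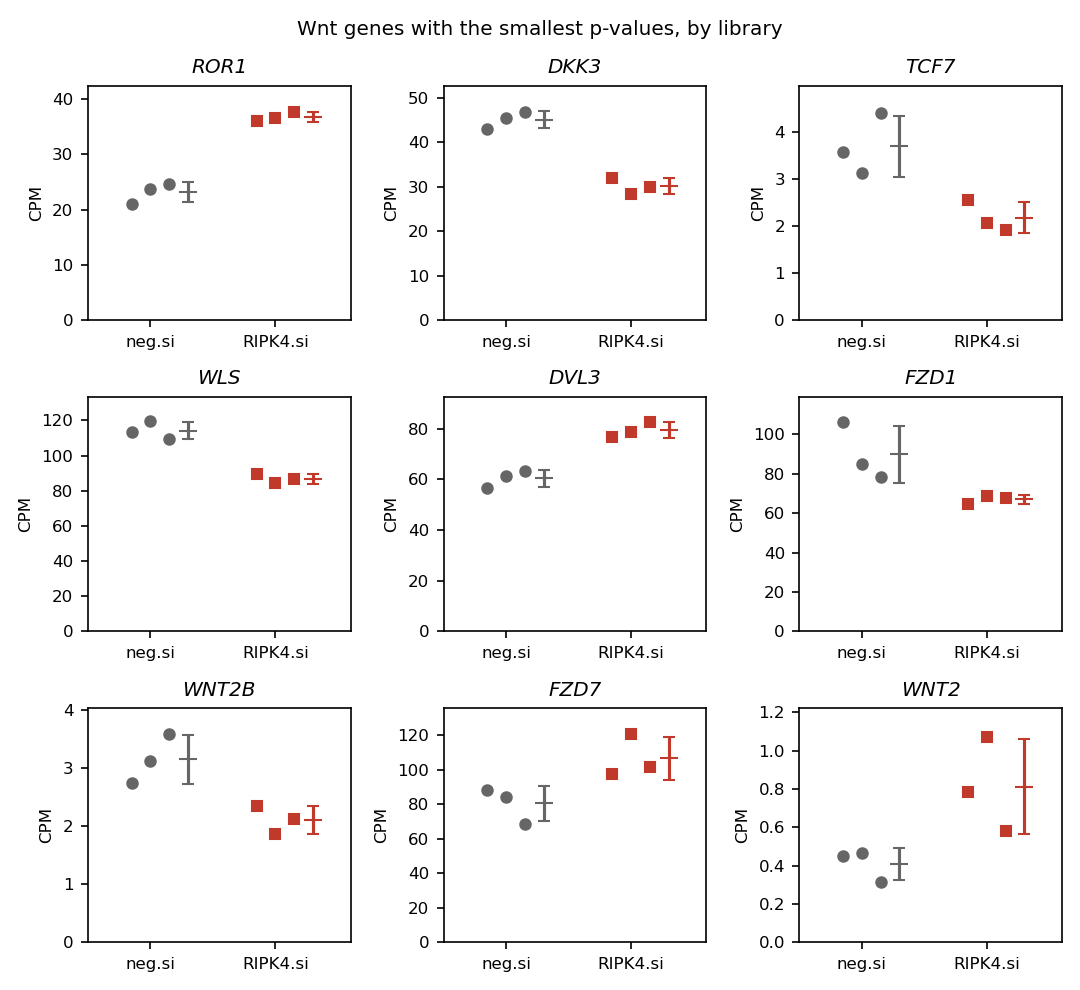
CPM in each library (y axes, each starting at 0) of the 9 Wnt genes with an unadjusted p under 0.05, for neg.si (grey circles) and RIPK4.si (red squares), with the mean and SD of 3 libraries beside the points. ROR1 sits at 21.1 to 24.6 CPM in neg.si and 36.1 to 37.7 CPM in RIPK4.si, DKK3 at 43.0 to 46.7 and 28.5 to 32.0 CPM, and in none of the 9 genes do the groups overlap.

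Among the genes of receptor turnover, LGR4 is a receptor for R-spondins, and RNF43 and ZNRF3 are ligases that remove Frizzled from the surface. LGR4 had the highest level of these, 27.3, 34.7 and 37.5 CPM in neg.si 1, 2 and 3 and 34.7, 39.5 and 44.9 CPM in RIPK4.si 1, 2 and 3, with overlap between groups (log2 fold change 0.26, SE 0.177, adjusted p = 0.717). Its log2 fold change was 0.15 without neg.si 1 and 0.17 without RIPK4.si 3. RNF43 was 13.8, 13.6 and 12.5 CPM in neg.si and 13.9, 14.1 and 14.6 CPM in RIPK4.si, just above (log2 fold change 0.098). ZNRF3 was 15.7, 16.6 and 15.1 CPM and 14.1, 14.7 and 14.0 CPM, just below (log2 fold change -0.15).

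The secreted inhibitors summed to 65.5 ± 3.56 CPM in neg.si and 50.7 ± 2.33 CPM in RIPK4.si, mostly through DKK3. DKK3, a divergent member of the Dickkopf family, was 43.0, 45.5 and 46.7 CPM in neg.si 1, 2 and 3 and 32.0, 28.5 and 30.0 CPM in RIPK4.si 1, 2 and 3. No library of one group reached the other, and the means were 45.05 ± 1.87 CPM in neg.si and 30.2 ± 1.78 CPM in RIPK4.si (log2 fold change -0.58, SE 0.142, adjusted p = 0.126). DESeq2 gave an adjusted p of 0.0321, edgeR with GC trends removed 0.0295, and the alternatives together 0.0295 to 0.587. DKK3 lies on chromosome 11, 11956207 to 12009769, minus strand, and its exons overlap antisense exons of USP47, with which reads counted without strand cannot be told apart.

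SFRP1, a decoy that binds Wnt ligands, was 16.9, 18.8 and 20.1 CPM in neg.si 1, 2 and 3 and 19.2, 17.9 and 20.6 CPM in RIPK4.si 1, 2 and 3 (log2 fold change 0.048, SE 0.158, adjusted p = 0.972), and its groups overlapped. It ranked above DKK3 per kilobase of all annotated exons (3.997 against 3.14 CPM per kilobase) and below it per kilobase of the canonical transcript (4.24 against 14.9). SFRP2 was much scarcer, at 0.420, 0.566 and 0.630 CPM in neg.si and 0.341, 0.312 and 0.322 CPM in RIPK4.si, with no overlap (log2 fold change -0.72, SE 0.384, adjusted p = 0.573). DKK1 had a log2 fold change of -0.29 with an interval of -1.23 to 0.65.

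Dishevelled proteins pass the signal on inside the cell, and RIPK4 has been described to phosphorylate DVL2. The DVL2 transcript was 76.8, 56.4 and 43.1 CPM in neg.si 1, 2 and 3 and 56.2, 59.2 and 57.7 CPM in RIPK4.si 1, 2 and 3, and the RIPK4.si values lay within the neg.si range. Its log2 fold change was -0.026 with a 95% interval of -0.49 to 0.44 (adjusted p = 0.987), and its sign changed without neg.si 1 or RIPK4.si 1. With GC trends removed it was -0.024 (SE 0.109). DVL3 was 56.7, 61.3 and 63.4 CPM in neg.si 1, 2 and 3 and 76.8, 78.7 and 82.8 CPM in RIPK4.si 1, 2 and 3, all RIPK4.si libraries being higher (log2 fold change 0.39, SE 0.136, adjusted p = 0.301). DVL1 was 27.1, 16.8 and 10.01 CPM in neg.si and 19.5, 27.3 and 23.7 CPM in RIPK4.si, with a log2 fold change of 0.38 and an interval of -0.33 to 1.098. Per kilobase of all annotated exons DVL2 was above DVL3 in neg.si (11.04 ± 3.19 and 9.60 ± 0.543 CPM per kilobase, within their spread) and DVL3 above DVL2 in RIPK4.si (12.6 ± 0.489 and 10.8 ± 0.284). Per kilobase of the canonical transcript DVL2 was above DVL3 in both groups (19.7 ± 5.67 and 11.5 ± 0.650 in neg.si, 19.3 ± 0.506 and 15.1 ± 0.585 in RIPK4.si). NKD1, an inhibitor that binds Dishevelled, was 10.1, 10.2 and 8.41 CPM and 12.8, 10.3 and 10.5 CPM, with no overlap by a narrow margin (log2 fold change 0.23, adjusted p = 0.780).

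CTNNB1, which encodes beta-catenin, was the most abundant transcript of the destruction complex group per length of exon. Its values were 331, 444 and 491 CPM in neg.si 1, 2 and 3 and 423, 389.6 and 449.8 CPM in RIPK4.si 1, 2 and 3. The log2 fold change was -0.0045 with a 95% interval of -0.40 to 0.40 (adjusted p = 0.997), and its sign turned with other scalings of the libraries. AXIN2, a scaffold of the complex and itself a standard target of beta-catenin, was 2.23, 1.498 and 2.01 CPM in neg.si 1, 2 and 3 and 1.81, 1.45 and 2.19 CPM in RIPK4.si 1, 2 and 3. Its groups overlapped throughout (log2 fold change -0.075, SE 0.275, adjusted p = 0.973). The AXIN2 log2 fold change turned to 0.066 without neg.si 1 and to 0.071 without RIPK4.si 2, and was -0.21 without neg.si 2 and -0.22 without RIPK4.si 3. The kinase gene GSK3B was 142, 162 and 198 CPM in neg.si and 130.5, 120.1 and 140.3 CPM in RIPK4.si, without overlap (log2 fold change -0.36, adjusted p = 0.480). Of the other members of the complex, GSK3A, APC and AXIN1 had log2 fold changes of -0.050, -0.042 and 0.034.

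LEF1 was the main factor of the TCF/LEF family in these cells. It accounted for 92.6% ± 0.792 of the family's transcripts per length of exon in neg.si and 93.4% ± 0.543 in RIPK4.si. Its library values were 249.5, 252 and 268 CPM in neg.si 1, 2 and 3 and 296, 240.5 and 286 CPM in RIPK4.si 1, 2 and 3 (log2 fold change 0.095, SE 0.146, adjusted p = 0.916), and the groups overlapped. Without RIPK4.si 1 the log2 fold change was 0.046 and without RIPK4.si 2 it was 0.19. TCF7, a much scarcer related factor, was 3.58, 3.13 and 4.41 CPM in neg.si 1, 2 and 3 and 2.56, 2.08 and 1.93 CPM in RIPK4.si 1, 2 and 3. All its RIPK4.si values were lower (log2 fold change -0.76, SE 0.237, adjusted p = 0.232). TCF7L1, a family member known mostly as a repressor, was 5.91, 5.13 and 5.38 CPM in neg.si and 7.33, 7.06 and 7.01 CPM in RIPK4.si, again without overlap and in the opposite direction (log2 fold change 0.38, adjusted p = 0.483). TCF7L2 overlapped between groups (log2 fold change -0.34).

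**Figure D3:**
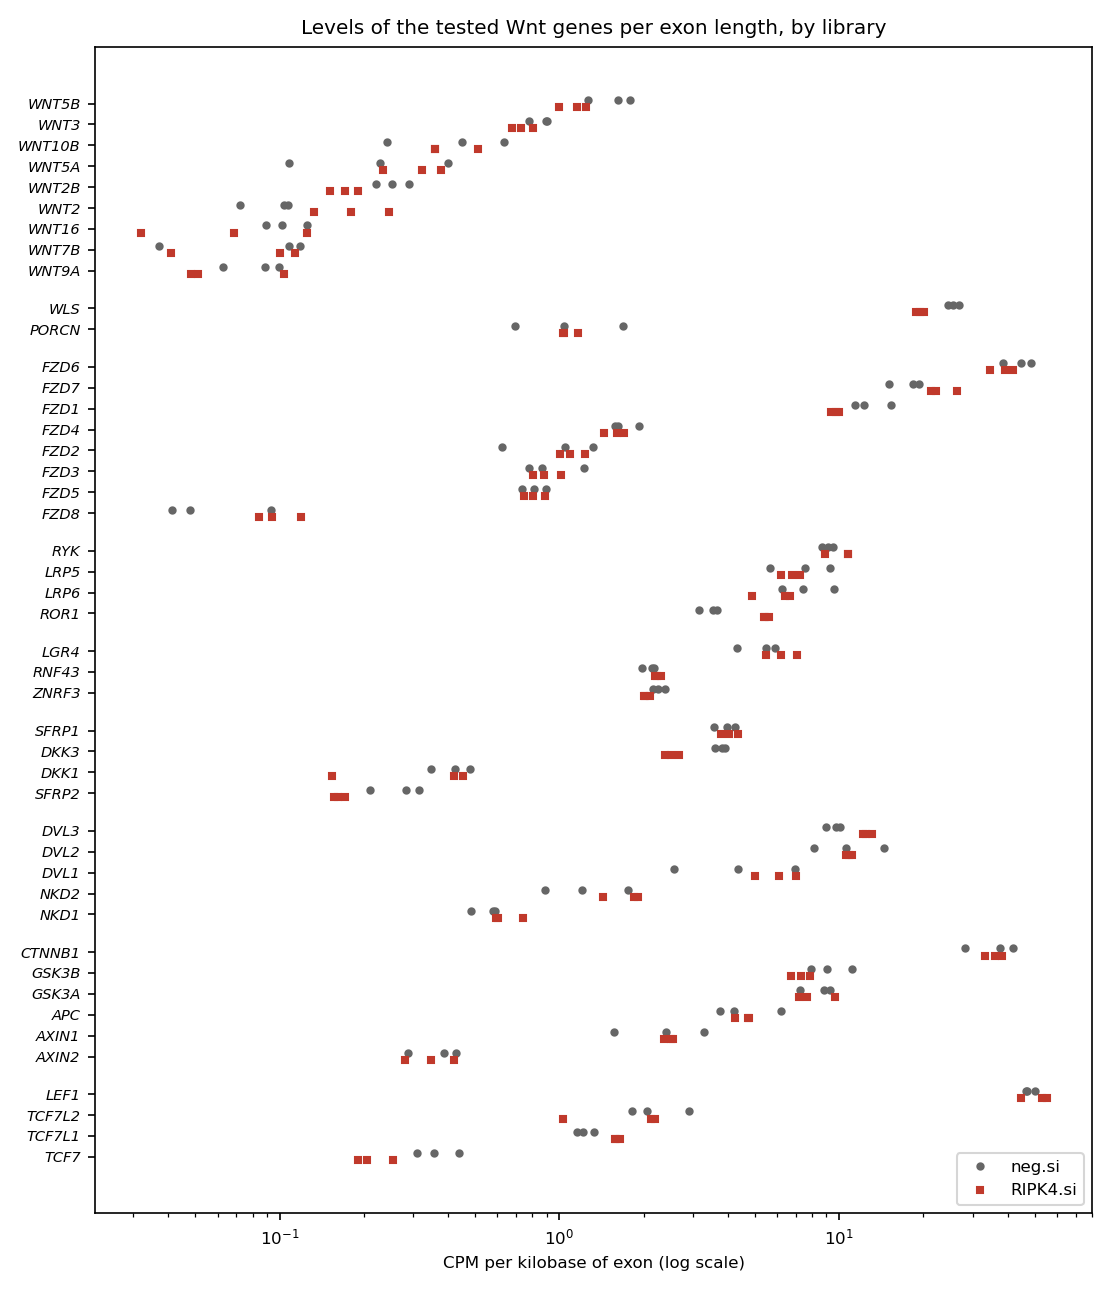
CPM per kilobase of annotated exon in each library (x axis, log scale) for the 45 tested Wnt genes (y axis, ordered by mean level within each role, roles in the order of the fold change plot). Grey circles are the 3 neg.si libraries and red squares the 3 RIPK4.si libraries. LEF1, FZD6 and CTNNB1 lie highest on this length scale, and of the ligands WNT5B does.

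The order of levels over all roles depended on the length used. Per kilobase of all annotated exons, as the mean of all libraries, it began with LEF1 (49.5 CPM per kilobase), FZD6 (41.2) and CTNNB1 (35.8), and per kilobase of the canonical transcript with CTNNB1 (115), LEF1 (74.2) and FZD6 (44.95). In neg.si, CTNNB1 and FZD6 were 35.9 ± 6.99 and 43.9 ± 5.03 on the exon scale, within their spread, and 115 ± 22.5 and 47.9 ± 5.49 on the canonical scale, beyond it. The order of WLS and FZD7 depended on the group as well. On the exon scale WLS was 25.6 ± 1.11 and FZD7 17.6 ± 2.24 in neg.si, against 19.5 ± 0.607 and 23.3 ± 2.72 in RIPK4.si, and on the canonical scale WLS was above FZD7 in both groups (42.0 ± 1.83 and 17.6 ± 2.24 in neg.si, 32.0 ± 0.997 and 23.3 ± 2.72 in RIPK4.si). All tested ligands were under 2 CPM per kilobase of exon in every library. Of the 26 tested genes outside the rule for named genes, log2 fold changes ran from -0.72 (SFRP2) to 0.69 (FZD8) and adjusted p-values from 0.480 to 0.999.

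The neg.si libraries differed from each other in a way that followed GC content. Across all genes, the rank correlation of GC content with a library's deviation was 0.555 in neg.si 1, 0.0815 in neg.si 2 and -0.547 in neg.si 3, and -0.0788 to 0.165 in the RIPK4.si libraries. The Wnt genes showed the same split. Of the 8 tested Wnt genes above 60% GC, 7 were higher in neg.si 1 than in neg.si 3, DVL1 (67.5% GC, log2 ratio 1.43), DVL2 (60.3%, 0.83) and AXIN1 (63.8%, 1.06) among them, and the exception was FZD8 (-0.96). All 13 below 45% GC were lower in neg.si 1, with log2 ratios between -1.89 and -0.069, CTNNB1 (43.5%, -0.57) and LRP6 (40.9%, -0.62) among them. Over the 45 genes GC content and this ratio had Pearson's r = 0.67 and Spearman's rho = 0.69, a description across genes that share the same pair of libraries. With the trends removed the number of Wnt genes at an unadjusted p under 0.05 went from 9 to 14 of 45, while the share over all genes went from 10.8% to 15.9%. The part of GC content in the value of any single gene was not tested.

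**Figure D4:**
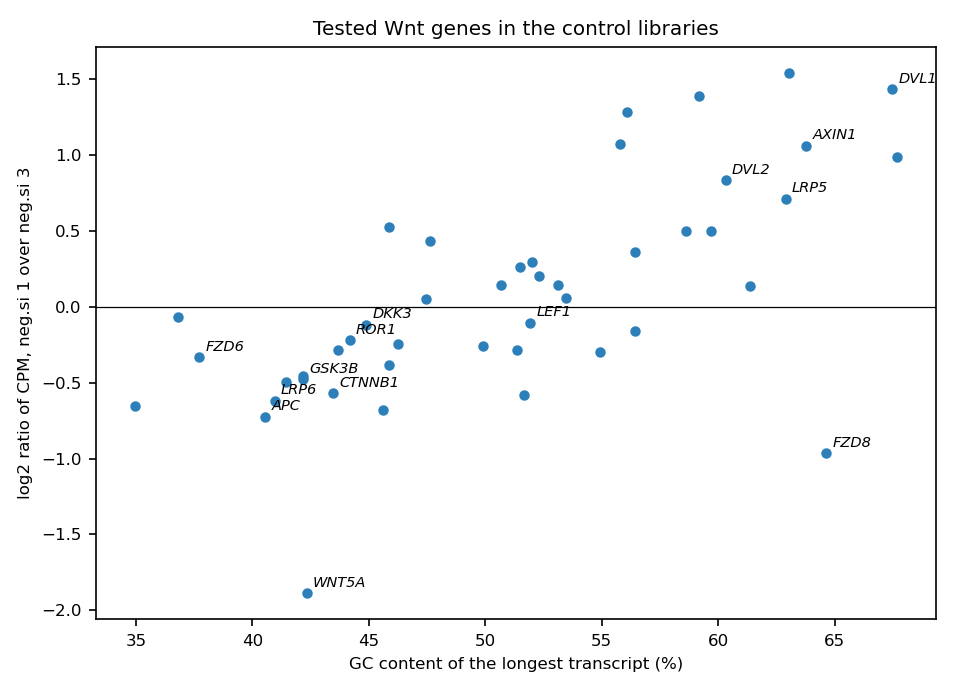
Log2 ratio of CPM in neg.si 1 over neg.si 3 (y axis) against GC content of the longest transcript (x axis, %) for the 45 tested Wnt genes, 1 point per gene. GC-rich genes such as DVL1 and AXIN1 lie above 0, and all 13 genes below 45% GC lie below 0.

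The heptamer ACAGCTT was looked for on the transcript strand of the longest annotated 3′ UTR of each gene. It was chosen from earlier results on these libraries, where genes that hold it had lower fold changes, so its values are a description. Among the tested Wnt genes 13 of 45 (28.9%) held it, and among all tested genes with a 3′ UTR 18.4% did. The median log2 fold change was -0.091 for all tested genes with the heptamer and -0.00012 for those without, and for the Wnt genes -0.090 and -0.041. Of the Wnt genes at an unadjusted p under 0.05, DKK3, FZD1 and WNT2B held it and were lower in RIPK4.si, while TCF7 and WLS, which were lower too, held no match. This was 3 of 9 genes, near the share of all tested Wnt genes. The windows around their matches nearest the stop codon are shown 5′ to 3′, with the heptamer in capitals, beside those of GSK3B, CTNNB1 and LEF1, which also held it and had log2 fold changes of -0.36, -0.0045 and 0.095.
DKK3: gtcctgaaaccACAGCTTttgtttctttg
FZD1: atagtgacaaaACAGCTTgcttagaacct
WNT2B: caaagtgatacACAGCTTagaaggcagcc
GSK3B: tggtatagtgcACAGCTTgaaattggttg
CTNNB1: tgttttttgccACAGCTTttgcaacttaa
LEF1: ctttttctgagACAGCTTgtctggtaagt

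These windows come from GENCODE release 44 transcripts on GRCh38 and lie in the 3′ UTR exon at chr11:11958738-11958766 (DKK3, minus strand), chr7:91271270-91271298 (FZD1, plus strand), chr1:112521595-112521623 (WNT2B, plus strand), chr3:119826330-119826358 (GSK3B, minus strand), chr3:41239569-41239597 (CTNNB1, plus strand) and chr4:108048034-108048062 (LEF1, minus strand). DKK3 held 3 matches in a 3′ UTR of 8257 bases and WNT2B 2 in 9656 bases, and the other 4 genes held 1 each. The DKK3 match nearest the stop codon began at base 5709 of that UTR, while its whole canonical transcript was shorter than 5709 bases. Whether the DKK3 transcripts of these cells reached a match was not tested. A longer 3′ UTR has more positions at which any heptamer can match. A match describes the letters only, and its part in the levels was not tested.

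Beyond the members, 126 further genes of the pathway were listed by role, of which 99 were tested. The lists were written with earlier results of these data known, so their counts beside the background are a description. The edgeR test called 1 of 99, NFATC2, a transcription factor of the calcium branch, against 0.767% of all genes, and 14 (4 higher, 10 lower) had an unadjusted p under 0.05, against 10.8%. DESeq2 called 4 of these 99 genes, NFATC2, VANGL2, VEGFA and EPHB2 (background 2.91% of the genes to which DESeq2 gave an adjusted p). With GC trends removed edgeR called these and TLE2, a co-repressor named after its values were seen, which made 5 of 99 (background 3.28%). NFATC2 rose from 167, 188 and 221 CPM in neg.si to 362, 324 and 374 CPM in RIPK4.si (log2 fold change 0.88, SE 0.159, adjusted p = 0.0472 with edgeR, 8.59e-05 to 0.314 over the alternatives), and the call was lost on leaving out any library except neg.si 3. VANGL2, a core planar cell polarity protein, was 4.42, 5.53 and 4.97 CPM in neg.si 1, 2 and 3 and 2.39, 2.53 and 2.41 CPM in RIPK4.si 1, 2 and 3, without overlap (log2 fold change -1.03, SE 0.202, adjusted p = 0.0634). It was called by DESeq2 (adjusted p = 0.00713) and with GC trends removed (adjusted p = 0.0258), within a range of 0.00713 to 0.387.

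Of 16 tested beta-catenin target genes, 8 had positive and 8 negative log2 fold changes, with a median of 0.016. None was called by the main edgeR test, and VEGFA and EPHB2 were called by DESeq2 and with GC trends removed. With edgeR, 6 (3 higher, 3 lower) had an unadjusted p under 0.05 where 10.8% of all genes did. Of the 16, 7 did not overlap between groups where 17.6% of all genes did not. The list was written with earlier results known, so these shares are a description. The summed level of the list was 3387 to 3544 CPM in neg.si and 3798 to 4110.2 CPM in RIPK4.si. VEGFA, an angiogenic growth factor also driven by other pathways, was 251, 271 and 232 CPM in neg.si 1, 2 and 3 and 406, 383 and 374 CPM in RIPK4.si 1, 2 and 3 (log2 fold change 0.63, SE 0.142, adjusted p = 0.0966, 0.00807 with DESeq2, 0.0315 with GC trends removed, and 0.00807 to 0.456 over the alternatives). EPHB2, a receptor for ephrins, was scarce, at 43, 21 and 31 counts in neg.si and 10, 10 and 6 in RIPK4.si (log2 fold change -1.79, SE 0.423, adjusted p = 0.112, 0.0492 with DESeq2, 0.0469 with GC trends removed, and 0.0469 to 0.526 over the alternatives). Both separated the groups, and in opposite directions.

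The other lists held the genes with the smallest p-values that follow. TNKS, a tankyrase that marks AXIN for turnover, was 39.1, 51.8 and 59.8 CPM in neg.si and 59.6, 59.9 and 71.9 CPM in RIPK4.si (log2 fold change 0.34, adjusted p = 0.582; log2 fold change 0.21 without neg.si 1). CXXC5, an inhibitor that binds Dishevelled, was 69.2, 58.0 and 52.8 and 34.4, 51.5 and 42.3 CPM (log2 fold change -0.49, adjusted p = 0.362). The co-repressor TLE4 was 8.88, 11.1 and 10.99 and 6.17, 7.16 and 6.11 CPM (log2 fold change -0.67, adjusted p = 0.167). For SMARCA4, a chromatin remodelling ATPase, the log2 fold change was 0.31 (adjusted p = 0.637), with 0.15 without neg.si 3 and 0.47 without neg.si 1. Of the extracellular modulators, CTHRC1 had a log2 fold change of 0.31 (adjusted p = 0.679), which was 0.12 without RIPK4.si 2 and 0.20 without neg.si 3. KREMEN1, a receptor for Dickkopf proteins, had one of -0.36 (adjusted p = 0.446). The median log2 fold change of the 99 genes was -0.037.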

How the data were processed

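The 6 libraries came from WM266.4 cells given neg.si (3) or RIPK4.si (3) and harvested at 48 h. The study describes independent experiments. The authors made poly(A) libraries (BGISEQ-500), used Cutadapt for trimming, TopHat for alignment (GRCh38.p13) and unstranded HTSeq for the number of read pairs in each gene. The deposited counts are whole numbers, not normalized. The table also holds normalized counts, mean levels, fold changes, standard errors and p-values of the authors' own comparison, which were not used.

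The deposited counts entered the quasi-likelihood test of edgeR 4.0.16 (R 4.3.3) with TMM normalization, a filter on low counts, no covariates and Benjamini-Hochberg adjustment over 16297 genes, which gave every adjusted p-value not credited to another tool. The standard error was the log2 fold change divided by the square root of F. Lengths, overlaps, GC content and 3′ UTRs came from GENCODE release 44, in which all 53 genes were found. Members and lists were chosen with earlier results of these data known. The rule named members with an unadjusted p under 0.05, the highest level per kilobase in each role, DVL2, CTNNB1, AXIN2, LEF1, WNT5A and ROR1, and, of other pathway genes, those called and in each list the gene of smallest p in each direction. SFRP2, GSK3B, TCF7L1, RNF43, ZNRF3, NKD1 and other members outside it were named after their values were seen. Alternatives were DESeq2 1.42.0, other scalings and filters, a replicate block, GC trends removed per library (lowess, span 0.3) and each library left out. Exons of 19 of the 53 genes overlap antisense exons, WLS with GNG12-AS1, TCF7 with SKP1, WNT2B with ST7L, WNT2 with CFTR, GSK3B with GSK3B-DT and LEF1 with LEF1-AS1 among them, and reads of such partners cannot be told apart. The edgeR test was also run on simulated counts, and no claim is drawn from that run. Intervals cover the spread between these libraries only.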

Additional observations from a re-analysis of the deposited data

How the results depend on the processing

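The RIPK4 log2 fold change kept its direction throughout and ran from -2.06 to -1.74 with each library left out, losing its call without neg.si 2 or any RIPK4.si library. The main count of 125 genes called became 437 with DESeq2, 532 with GC trends removed, 442 with GC trends removed and a replicate block, and 0 to 295 with each library left out (0 without neg.si 2, RIPK4.si 1 or RIPK4.si 3). Wnt genes called went from 0 to 2 with DESeq2, 2 with GC trends removed, 2 with GC trends removed and the block, and 0 to 1 with libraries left out. The 9 with an unadjusted p under 0.05 became 14 with GC trends removed (15.9% of all genes at that p), 14 with the block added (16.3%), and 3 to 12 with libraries left out (6.88% and 6.48% of all genes at the lowest, without neg.si 2 or RIPK4.si 3, and 13.5% at the highest, without neg.si 1). The labels do not say whether equal replicate numbers mark paired samples, and the main fit did not pair them. Same-numbered deviations had r = -0.24, 0.25 and 0.35. These values cannot decide the pairing, since the deviations of the neg.si libraries also followed GC content. The paired fit with a replicate block called 131 genes and 0 Wnt genes.

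Of 405 values of the other single genes named (29 genes, RIPK4 not among them), 368 kept direction and side of the threshold, 15 gained a call, 5 lost one (all NFATC2) and 17 changed sign. The CTNNB1 log2 fold change changed sign with DESeq2 (0.011), its size factors (0.0044), upper-quartile scaling (0.0052), no filter (0.010), the replicate block (0.012), GC trends removed (0.037), and GC with the block (0.042), and ran from -0.13 to 0.12 with libraries left out. DVL2 was 0.013 with the block and -0.20 to 0.23 with libraries left out, where AXIN2 ran from -0.22 to 0.071 and SFRP1 from -0.0012 to 0.11. The cause was not tested. EPHB2 could not be fitted with at least 10 counts in every library.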
